A study of Oryza sativa with 12 samples.

Results

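Phenylalanine ammonia-lyases and cinnamate hydroxylases catalyse the entry steps of phenylpropanoid synthesis, the route by which plants turn phenylalanine into lignin, flavonoids and soluble phenolic acids. Phenylalanine ammonia-lyase (PAL) removes ammonia from phenylalanine and leaves cinnamate. Cinnamate hydroxylase (C4H), a membrane-bound cytochrome P450, then adds a hydroxyl group to the ring and yields coumarate. In grasses the resulting lignin and ferulates stiffen and cross-link cell walls, and PAL genes form a family in which single copies often respond to different signals.

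The genes were chosen by name alone: those whose name, with a leading Os dropped, starts with PAL and a digit, or with C4H. There were 8 of them among the 13674 genes in the union of 4 deposited tables: 5 PAL genes (OsPAL1, OsPAL02, OsPAL03, OsPAL04 and OsPAL07) and 3 cinnamate hydroxylase genes (OsC4H, C4H1 and C4H2). Expression was measured by RNA sequencing of leaf RNA from 2 rice varieties, QJ10 (called QJ) and LJ31 (called LJ). The 4 groups were stressed QJ, control QJ, stressed LJ and control LJ leaves, where stress was bicarbonate salt-alkali treatment at 200 mmol/L, with 3 libraries per group that the series record calls biological replicates. The labels state neither plant age nor the length of the treatment. Values are FPKM, fragment counts scaled to gene length and library size, so levels of different genes can be set side by side per length.

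Each table covers 1 pair of groups and holds only genes that its makers had selected: each has an authors' adjusted p below 0.05, and each authors' log2 fold change is 1 or more in either direction. A gene that a table does not list may still have been expressed there. Of the 8 genes, 6 had values in all 12 libraries. OsPAL02 had none in stressed QJ leaves and OsPAL07 none in control LJ leaves. The tables of stress responses are named for the other variety than their column headers, and the headers were followed, so which variety is which depends on them. Depth per library is unknown, and values could not be turned back into reads. Over the 30 group means of the 8 genes the coefficient of variation between libraries had a median of 3.65% and ran from 0.460% to 32.8%. The highest value was that of OsC4H in control QJ leaves, and without OsC4H the highest was 12.4%. Differences below are limma log2 differences of FPKM + 1 with the standard error (SE). Each adjusted p is Benjamini-Hochberg over all tested genes of that comparison, two-sided, and a gene passed at an adjusted p under 0.05.

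Several of the genes have locus numbers close to each other. OsPAL02 (Os04g0518100) and OsPAL07 (Os04g0518400) lie on chromosome 4, and OsC4H (Os02g0467000) and C4H1 (Os02g0467600) on chromosome 2. OsPAL1 (Os02g0627100), also on chromosome 2, is close in number to a pair of genes named OsPAL with no digit. C4H2 (Os05g0320700) and OsPAL04 (Os05g0427400) carry chromosome 5 numbers, and OsPAL03 (Os12g0520200) a chromosome 12 number. The counting of reads that match several near-identical copies is not stated, so the split of signal among close copies is uncertain.

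The PAL genes did not move as a block. OsPAL1 and OsPAL04 were higher under stress in both varieties, OsPAL02 and OsPAL07 were lower in the single variety where each could be tested, and OsPAL03 was lower under stress in LJ while its QJ groups overlapped. Between varieties, OsPAL03 was the PAL gene higher in QJ, and every other numbered PAL gene tested was lower in QJ than in LJ.

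OsPAL1 stood at 40.98, 40.14 and 41.65 FPKM in stressed QJ leaves, against 12.61, 12.53 and 13.51 FPKM in control QJ leaves. In LJ it stood at 123.03, 120.19 and 120.6 FPKM under stress, against 52.64, 54.36 and 52.0 FPKM in controls. Stressed libraries lay above control libraries in each variety, and all QJ libraries lay below all LJ libraries. The stress difference was 1.59 (SE 0.0528, adjusted p = 2.87e-08) in QJ and 1.18 (SE 0.0314, adjusted p = 6.85e-09) in LJ. OsPAL1 was the PAL gene that all 4 tables list.

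OsPAL04 was the most abundant of the 5 numbered PAL genes in LJ. It measured 231.08, 236.59 and 237.57 FPKM in stressed LJ leaves, against 115.12, 119.26 and 109.92 FPKM in control LJ leaves. In QJ it measured 35.17, 33.4 and 35.31 FPKM under stress, against 19.54, 22.69 and 22.11 FPKM in controls. The 4 groups were separate, and the highest QJ library was below the lowest LJ library. The rise was 1.03 in LJ (SE 0.0341, adjusted p = 2.25e-08). The QJ stress table does not list OsPAL04, so its QJ difference comes from a limma fit over all 12 libraries on the 5170 genes tested there, in which it was 0.67 (SE 0.0518, adjusted p = 8.67e-08).

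OsPAL03 showed the opposite order of varieties. Its libraries held 52.3, 49.89 and 54.22 FPKM in stressed QJ leaves, against 53.92, 55.33 and 57.36 FPKM in control QJ leaves. They held 4.7, 5.43 and 4.7 FPKM in stressed LJ leaves, against 18.46, 16.19 and 16.46 FPKM in control LJ leaves. Levels in QJ overlapped between treatments, whereas every stressed LJ library was below every control LJ library. In LJ the difference was -1.60 (SE 0.0852, adjusted p = 3.70e-07). In QJ, from the 12-library fit, it was -0.09 with a 95% interval of -0.23 to 0.05 (adjusted p = 0.230). With log values centred on each library's median, that QJ difference became -0.35 (adjusted p = 0.000301).

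OsPAL02 and OsPAL07, whose locus numbers are neighbours, were both low in level and lower under stress. OsPAL02 measured 6.35, 5.97 and 6.39 FPKM in stressed LJ leaves, against 16.6, 17.24 and 16.05 FPKM in control LJ leaves, a difference of -1.28 (SE 0.0656, adjusted p = 2.90e-07). Control QJ leaves held 3.6, 4.24 and 4.59 FPKM, below both LJ groups. OsPAL07 measured 3.64, 4.65 and 4.38 FPKM in stressed QJ leaves, against 14.63, 13.5 and 13.55 FPKM in control QJ leaves, a difference of -1.52 (SE 0.0986, adjusted p = 1.60e-06). Its stressed LJ libraries were within 15.5 to 15.65 FPKM, above every QJ library. Whether either gene fell in the other variety could not be tested, because 1 of the groups needed has no value.

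**Figure D1:**
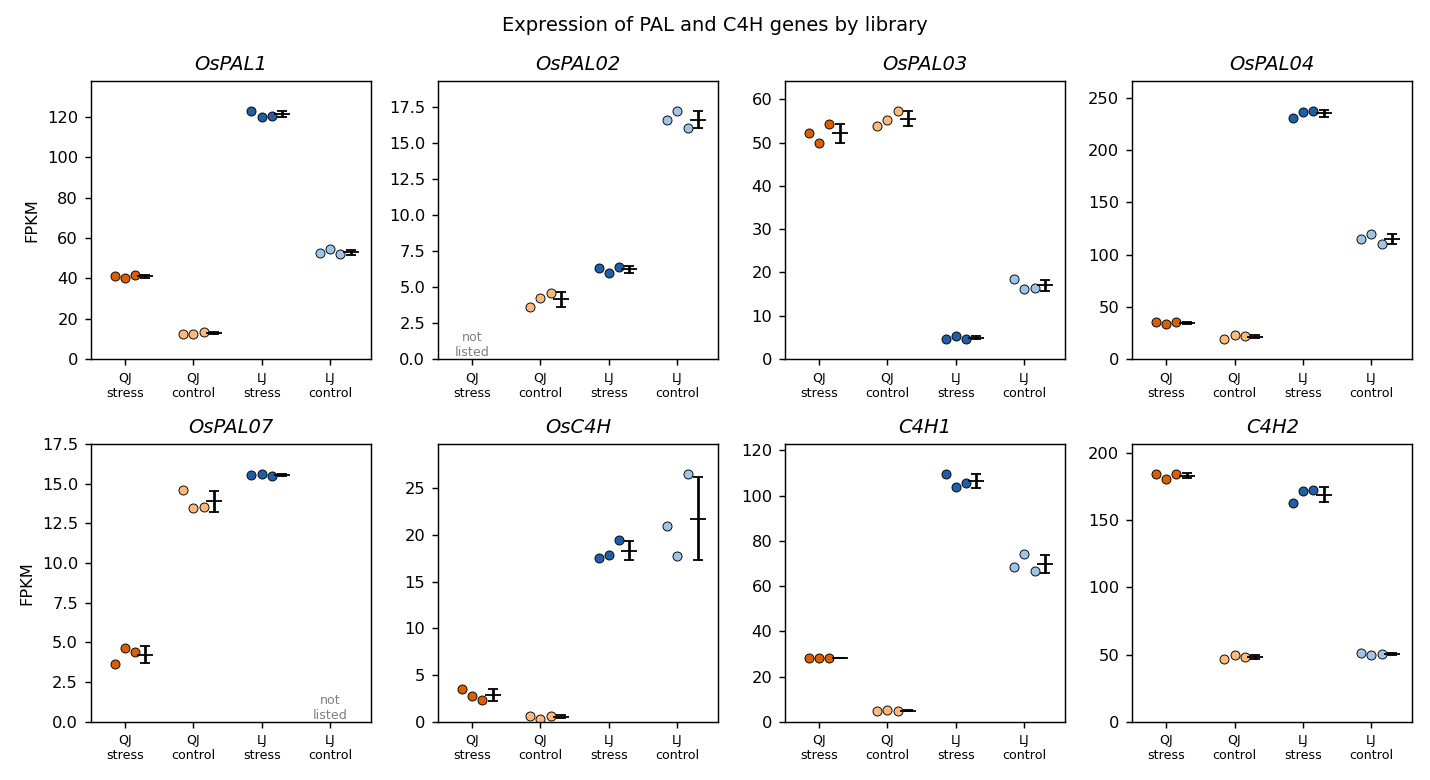
FPKM of the 8 genes in each library (circles) by group, with the group mean and SD as bars beside them (n = 3) and the vertical scale starting at 0 in every panel. OsPAL03 stands highest in the QJ groups, OsPAL04 and OsPAL1 in stressed LJ leaves, and C4H2 reaches similar heights in the stressed leaves of both varieties.

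C4H2 and C4H1 rose under stress in both varieties. OsC4H was higher under stress in QJ, where it passed the filter on low values only through its stressed libraries, and did not pass the test in LJ. C4H2 was the most abundant of them in every group but control LJ leaves, where C4H1 exceeded it.

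C4H2 held 184.35, 180.9 and 184.85 FPKM in stressed QJ leaves, against 46.75, 49.96 and 48.4 FPKM in control QJ leaves. In LJ it held 163.15, 171.49 and 172.91 FPKM under stress, against 51.43, 49.93 and 50.33 FPKM in controls. Treatment separated the libraries completely, and the controls of the varieties overlapped. The stress difference was 1.90 (SE 0.0350, adjusted p = 1.25e-09) in QJ and 1.72 (SE 0.0335, adjusted p = 1.35e-09) in LJ. Neither table of variety differences lists C4H2.

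C4H1 read 28.38, 28.25 and 28.12 FPKM in stressed QJ leaves, against 4.91, 5.01 and 4.84 FPKM in control QJ leaves. Its LJ libraries read 109.79, 103.76 and 105.58 FPKM under stress, against 68.36, 74.04 and 66.84 FPKM in controls. No 2 groups overlapped, and the stressed QJ leaves remained under the unstressed LJ leaves. The QJ mean under stress was 5.74 times the control mean in FPKM. On the log2(FPKM + 1) scale of the test, where the added 1 FPKM shrinks the change, the difference was 2.30 (SE 0.0605, 4.94-fold, adjusted p = 8.31e-09). In LJ, where the stress table does not list it, the 12-library fit gave 0.60 (SE 0.0450, adjusted p = 4.73e-08).

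OsC4H was the least abundant of the cinnamate hydroxylases. It read 3.54, 2.77 and 2.31 FPKM in stressed QJ leaves, against 0.66, 0.33 and 0.57 FPKM in control QJ leaves. It read 17.58, 17.88 and 19.48 FPKM in stressed LJ leaves, against 20.93, 17.75 and 26.57 FPKM in control LJ leaves. The QJ groups were separate and the LJ groups overlapped. The QJ difference was 1.34 (SE 0.147, adjusted p = 4.04e-05), and OsC4H entered that test only through its stressed libraries, since all 3 control values were under the filter of 1 FPKM. The LJ difference in the 12-library fit was -0.22 with an interval of -0.54 to 0.11 (adjusted p = 0.190). The added 1 FPKM shrinks the QJ difference: it was 2.28 with a pseudocount of 0.1, and 2.31 in the authors' deposited table.

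In all, the QJ stress table lists 5 of the 8 genes, of which OsPAL1, C4H1, C4H2 and, with the limit given above, OsC4H rose and OsPAL07 fell. The LJ stress table also lists 5, of which OsPAL1, OsPAL04 and C4H2 rose and OsPAL02 and OsPAL03 fell. Since the listed genes had been selected, 99.7% of all genes tested for QJ (50.7% higher and 49.0% lower) and 99.7% of those tested for LJ (49.6% higher and 50.0% lower) passed as well, and the counts say nothing particular about the family. Groups that do not overlap were equally common, at 99.3% of tested genes in either stress comparison, and at 77.9% for QJ and 84.3% for LJ in the 12-library fit. By the adjusted p, 76.2% of genes in that fit passed for stress in QJ, where OsPAL04 passed and OsPAL03 did not. For stress in LJ 83.5% passed, with C4H1 among them and OsC4H not.

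Other leaf transcripts moved with these stress responses. Of 36 genes of the photosystems, their antennae and the Rubisco small subunit, used as mesophyll markers, 17 of 18 tested fell in QJ and 28 of 31 in LJ. Of all tested genes 49.0% fell in QJ and 50.0% in LJ. The marker sums per library were 4716 to 4826 FPKM in stressed QJ leaves against 15831 to 16105 FPKM in control QJ leaves, over the 19 listed there. Over the 31 listed for LJ they were 6194 to 6236 FPKM in stressed LJ leaves against 27080 to 27433 FPKM in control LJ leaves, with 1 marker at 0 in the controls and none at 0 under stress. In leaf tissue measured in bulk, fewer cells of a type and less RNA per cell cannot be told apart. The part of this shift in the PAL and C4H values was not tested.

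**Figure D2:**
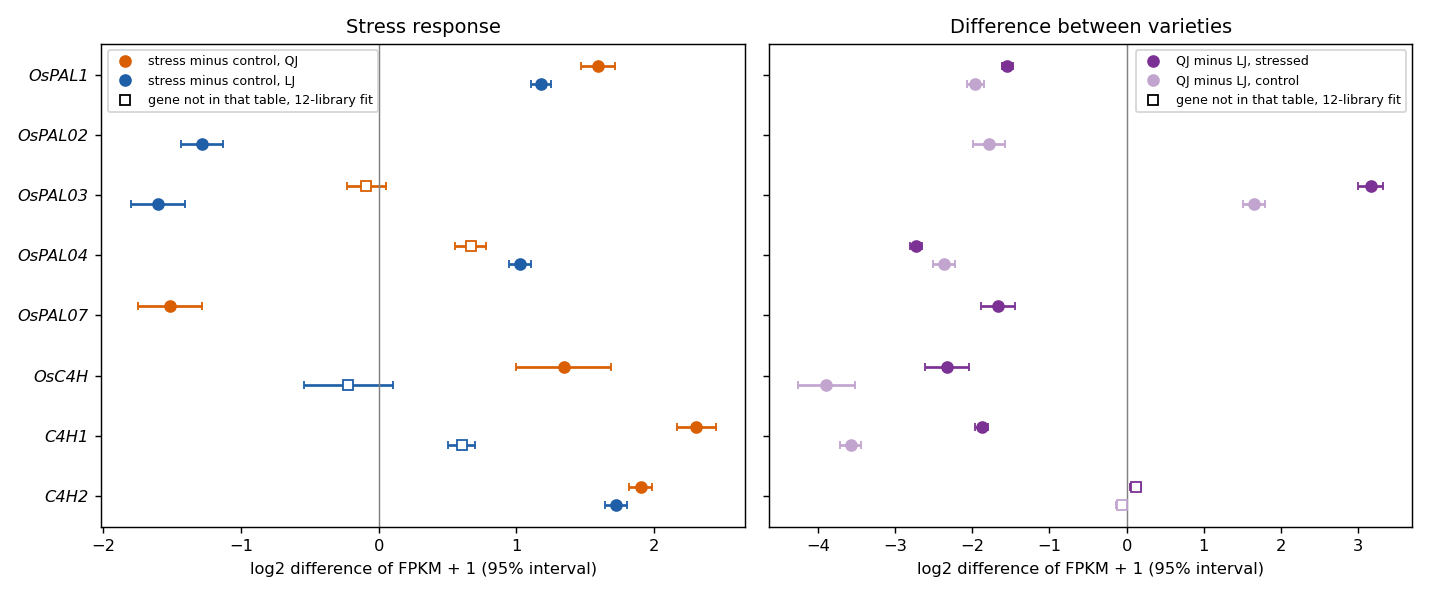
Log2 differences of FPKM + 1 for the 8 genes with 95% intervals, for stress minus control in each variety (left) and QJ minus LJ in stressed and control leaves (right). Filled circles come from the table of that comparison and open squares from the 12-library fit where the table does not list the gene. OsPAL03 is the PAL gene to the right of 0 between varieties, and C4H2 lies close to 0 there.

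Between varieties, QJ leaves held less of most of these transcripts than LJ leaves, whether stressed or not. The table for stressed leaves lists 6 of the genes. OsPAL03 was higher in QJ by 3.16 (SE 0.0704, adjusted p = 2.16e-09), its QJ mean being 52.1 ± 2.17 FPKM and its LJ mean 4.94 ± 0.421 FPKM (SD, n = 3 each). The other 5 were lower in QJ, with log2 differences of -2.73 for OsPAL04 (SE 0.0331), -2.33 for OsC4H (SE 0.125), -1.88 for C4H1 (SE 0.0354), -1.67 for OsPAL07 (SE 0.0935) and -1.54 for OsPAL1 (SE 0.0312), and with limma adjusted p from 1.17e-10 to 5.03e-07. Of all genes tested for stressed leaves 99.4% passed, 34.0% as higher and 65.4% as lower in QJ, and 99.0% had groups that did not overlap.

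In control leaves the table again lists 6 of them. OsC4H differed by -3.89 (SE 0.157, adjusted p = 8.55e-08) and C4H1 by -3.58 (SE 0.0563, adjusted p = 6.97e-10), both lower in QJ. OsC4H entered this test only through its LJ libraries, since its QJ libraries held 0.33 to 0.66 FPKM, under the filter of 1 FPKM, so it had to differ and its value is a description. The means of C4H1 were 4.92 ± 0.0854 FPKM in control QJ leaves and 69.7 ± 3.80 FPKM in control LJ leaves (SD, n = 3 each). The PAL genes OsPAL04, OsPAL1 and OsPAL02 differed by -2.37 (SE 0.0617), -1.96 (SE 0.0488) and -1.78 (SE 0.0889), with limma adjusted p from 6.10e-09 to 2.99e-07. OsPAL03 was higher in QJ by 1.65 (SE 0.0592, adjusted p = 4.50e-08). Here 99.7% of all tested genes passed, 31.1% as higher and 68.6% as lower in QJ, and 99.3% had groups that did not overlap.

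C4H2 had the smallest variety differences of the 6 genes with values in all libraries. The 12-library fit put QJ minus LJ at 0.12 in stressed leaves (SE 0.0332, adjusted p = 0.00532) and at -0.06 in control leaves, with an interval of -0.14 to 0.01 (adjusted p = 0.0898). In that fit 91.3% of genes passed between stressed groups and 89.2% between control groups, and groups did not overlap for 91.1% and 89.3%. The sign of these small differences depended on the scaling: the stressed difference was -0.24 with the authors' scaling, and the control difference 0.43 with median centring.

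Genes used as markers of other tissues differed between the control groups too. The inflorescence and secondary wall lists were taken by name, and that their genes mark these tissues was not checked. The inflorescence and anther list holds 24 genes, all those with MADS names and a few named anther genes. Of these 17 of 18 tested were lower in control QJ than in control LJ leaves, where 68.6% of all tested genes were lower. Their sums were 61.9 to 71.4 FPKM in QJ and 665 to 680 FPKM in LJ over the 21 listed, with 8 of them at 0 in QJ. Of the genes lower in QJ, all but MADS14 and MADS26 averaged under 1 FPKM in control QJ leaves. Those met the filter of 1 FPKM only through control LJ leaves and had to be lower, so their count is a description. The secondary wall list is mostly FLA genes, named for fasciclin-like arabinogalactan proteins, and otherwise holds OsCesA4, CESA7, BC1 and OsBC1. All 26 of its genes tested, of 27 listed, were lower in control QJ leaves, with sums of 46.9 to 49.6 FPKM against 748 to 771 FPKM and 3 genes at 0 in QJ. The share over all tested genes was again 68.6%. Many of the 26, such as BC1, OsFLA7 and OsFLA9, averaged under 1 FPKM in control QJ leaves. Such genes met the filter only through LJ and had to be lower. Between stressed groups 7 of 7 inflorescence genes and 14 of 14 secondary wall genes were also lower in QJ, where 65.4% of all tested genes were lower. Their sums were 42.1 to 46.3 FPKM against 167 to 173 FPKM and 14.4 to 16.0 FPKM against 68.3 to 72.0 FPKM, with 1 and 2 genes at 0 in QJ. All tested but MADS14, OsCesA4, OsFLA3, OsFLA6 and OsFLA16 averaged under 1 FPKM in stressed QJ leaves. Those met the filter only through stressed LJ leaves and had to be lower, so these counts too are a description. MADS14 alone averaged 43.0 FPKM in stressed QJ and 154 FPKM in stressed LJ leaves, most of the inflorescence sums there. Within LJ 15 of 18 inflorescence genes fell under stress and 3 rose, with sums of 39.2 to 43.7 FPKM in stressed against 455 to 475 FPKM in control leaves. All 24 secondary wall genes tested in LJ fell, with sums of 69.5 to 72.8 FPKM against 740 to 764 FPKM, and all 10 tested in QJ fell, with 12.9 to 14.6 FPKM against 41.3 to 43.7 FPKM. Among all tested genes 50.0% fell in LJ and 49.0% in QJ. Some genes that fell, such as RTS and OSC6 in LJ and OsFLA4 in QJ, were under 1 FPKM in every stressed library. Such genes met the filter only through controls and had to fall. Of 2 inflorescence genes listed for stress in QJ, 1 rose and 1 fell. Mesophyll markers were split between varieties, with 5 of 9 higher in QJ among controls and 8 of 12 among stressed leaves. Of all tested genes 31.1% and 34.0% were higher there. The 1 root marker listed stayed at or below 1.02 FPKM in every group with a value. The part of these tissues in the variety differences of PAL and C4H genes was not tested.

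The response to stress itself differed between varieties for each of the 6 genes with values in all libraries. The difference of responses, QJ minus LJ, was 1.70 for C4H1 (SE 0.0637, adjusted p = 1.57e-10), 1.56 for OsC4H (SE 0.211, adjusted p = 2.91e-05) and 1.51 for OsPAL03 (SE 0.0925, adjusted p = 1.67e-08). C4H1 rose more in QJ, and OsPAL03 fell in LJ and did not pass in QJ. OsC4H did not pass in LJ. In QJ it met the filter of 1 FPKM only through its stressed libraries and had to be higher there, so its QJ value is a description. The difference of responses was smaller for OsPAL1 at 0.42 (SE 0.0549, adjusted p = 2.41e-05), and OsPAL04 went the other way at -0.36 (SE 0.0733, adjusted p = 0.000848), its rise being larger in LJ. C4H2 differed by 0.18 (SE 0.0469, adjusted p = 0.00473), a value that became -0.12 with median centring and -0.11 with the authors' scaling. Of the 5170 genes tested 66.4% passed, 41.4% with a higher and 25.0% with a lower value in QJ. Median centring lowered all differences of responses by 0.30, which took OsPAL1 to 0.12 (adjusted p = 0.103) and the share of passing genes that were higher in QJ to 43.5%, against 62.4% without centring.

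Summed over the 3 genes, cinnamate hydroxylase expression was 214 ± 2.28 FPKM in stressed QJ leaves, against 53.8 ± 1.49 FPKM in control QJ leaves. It was 294 ± 3.78 FPKM in stressed LJ leaves, against 142 ± 1.54 FPKM in control LJ leaves (SD, n = 3 each). The same 3 genes made up these sums in different proportions. C4H2 supplied 85.5% ± 0.331 of the sum in stressed QJ leaves and 89.9% ± 0.498 in control QJ leaves, but 57.6% ± 1.24 in stressed LJ leaves and 35.6% ± 0.830 in control LJ leaves. C4H1 supplied 13.2% and 9.15% in stressed and control QJ leaves, and 36.2% and 49.1% in stressed and control LJ leaves. OsC4H contributed 1.34% and 0.972% in QJ, and 6.23% and 15.3% in LJ, in the same order of treatments. These shares are a description and were not tested.

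The numbered PAL genes with values throughout were also mixed differently. OsPAL1, OsPAL03 and OsPAL04 summed to 128 ± 3.93 FPKM in stressed QJ leaves against 89.9 ± 3.51 FPKM in control QJ leaves, and to 361 ± 2.18 FPKM in stressed LJ leaves against 185 ± 5.85 FPKM in control LJ leaves (SD, n = 3 each). OsPAL03 made up 40.8% of that sum in stressed QJ leaves and 61.8% in control QJ leaves, but 1.37% in stressed LJ leaves and 9.22% in control LJ leaves. OsPAL04 made up 27.1% and 23.8% in the QJ groups, and 65.1% and 62.1% in the LJ groups, again stressed before control. The ratio of OsPAL04 to OsPAL03 within a library was therefore 0.664 ± 0.0115 in stressed QJ leaves and 0.386 ± 0.0239 in control QJ leaves. In LJ it was 47.8 ± 3.69 under stress and 6.76 ± 0.570 in controls (SD, n = 3 each). OsPAL1 made up 32.1% in stressed QJ against 14.3% in control QJ leaves, and 33.6% in stressed LJ against 28.7% in control LJ leaves. The unnumbered OsPAL gene Os02g0626400, described below, also had values throughout and is outside these sums. In every group it was more abundant than each of the genes summed, so the shares are not shares of all PAL expression.

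**Figure D3:**
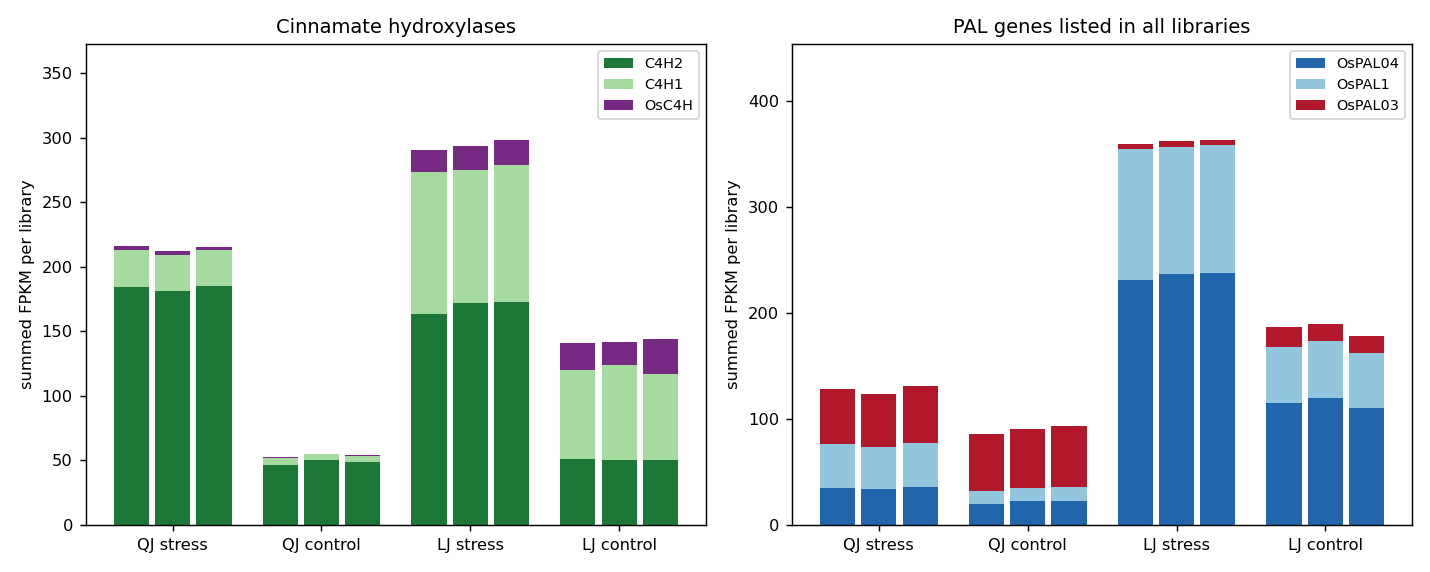
Summed FPKM in each library (1 bar per library, 3 per group, axis from 0), stacked by gene. The left panel holds the 3 cinnamate hydroxylases and the right panel the 3 numbered PAL genes with values in all libraries. The unnumbered OsPAL gene Os02g0626400 also has values in all libraries, is more abundant than each of these PAL genes, and is not in the bars. C4H2 fills most of each QJ bar for the hydroxylases, and OsPAL03 is prominent in the QJ bars for PAL but thin in the LJ bars.

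A pair of genes named OsPAL without a digit, Os02g0626100 and Os02g0626400, fall outside the naming rule but encode the same enzyme by name, and they were more abundant than any numbered PAL gene. Os02g0626100 (OsPAL) held 566.79, 453.98 and 528.04 FPKM in stressed QJ leaves, against 814.62, 905.67 and 1061.51 FPKM in control QJ leaves. It fell in QJ by 0.84 on the log2 scale (SE 0.108, limma adjusted p = 0.000107), and stressed LJ leaves held 889.55, 815.46 and 822.17 FPKM. Os02g0626400 (OsPAL) held 273.63, 271.83 and 282.96 FPKM in stressed QJ leaves against 102.33, 109.68 and 109.06 FPKM in control QJ leaves, and 549.56, 548.05 and 555.98 FPKM in stressed LJ leaves against 369.11, 382.79 and 376.54 FPKM in control LJ leaves. Its stress difference was 1.36 (SE 0.0356, adjusted p = 8.14e-09) in QJ and, from the 12-library fit, 0.55 (SE 0.0282, adjusted p = 1.06e-09) in LJ. Os02g0626400 thus had the group order of OsPAL1, with control QJ lowest and stressed LJ highest, while Os02g0626100 moved in QJ in the direction of OsPAL07.

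The rest of the pathway was followed with a list of 51 other genes, taken by name from the steps before PAL and after C4H. None of the names matched the coumarate hydroxylase CYP98A, CCoAOMT, chalcone isomerase, DFR, ANS or LAR. Under stress in QJ 16 of 19 tested genes rose and 3 fell, where 50.7% of all tested genes rose and 49.0% fell. In LJ 15 of 22 rose and 7 fell, where 49.6% of all tested genes rose and 50.0% fell. The median difference of the list was 1.67 in QJ and 1.10 in LJ, against 0.66 and -0.54 over all tested genes. The medians over all genes were unstable, since the tables leave out small changes: with a filter of at least 5 FPKM they were -0.56 in QJ and 0.87 in LJ. Cinnamoyl-CoA reductases (CCR), which open the lignin branch, rose in 5 of 5 tests in QJ and 6 of 6 in LJ, among the genes the stress tables list. The most abundant of them, OsCCR21, is in neither stress table and had 66.11 to 71.33 FPKM in stressed QJ against 61.64 to 66.17 FPKM in control QJ leaves, and 213.38 to 219.37 FPKM in stressed LJ against 316.95 to 328.79 FPKM in control LJ leaves, lower under stress in LJ without overlap. Cinnamyl alcohol dehydrogenases (CAD), which make the lignin alcohols, rose in 3 of 3 in QJ, whereas in LJ OsCAD5 rose, and OsCAD7 and OsCAD8D fell.

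For each step the gene with the highest mean over the libraries it had values in is described. These means cover unlike sets of libraries, the 6 stressed libraries for ADT and the 6 control libraries for CADL against 12 for the others, and the gene named does not stand for its step. CYP84A5, a ferulate hydroxylase on the way to syringyl lignin, averaged 40.6 ± 2.57 FPKM in stressed QJ against 7.8 ± 0.490 FPKM in control QJ leaves, and 17.6 ± 0.771 FPKM in stressed LJ against 3.84 ± 0.165 FPKM in control LJ leaves (SD, n = 3 each). Its differences were 2.24 (SE 0.0715, adjusted p = 2.35e-08) in QJ and 1.95 (SE 0.0717, adjusted p = 4.14e-08) in LJ, so it rose in both varieties like C4H2. 4CL5, a ligase that activates coumarate for both branches, averaged 68.2 ± 2.36 FPKM in stressed QJ against 94.8 ± 1.41 FPKM in control QJ leaves, and 514 ± 4.76 FPKM in stressed LJ against 273 ± 4.90 FPKM in control LJ leaves (SD, n = 3 each). Its responses differed by -1.38 (QJ minus LJ, SE 0.0392, adjusted p = 1.10e-11), the sign seen for OsPAL04. Of the O-methyltransferases, ROMT9, named here for its response and not its level, rose by 2.04 (SE 0.0437, adjusted p = 2.64e-09) in QJ and fell in LJ, at -1.30 (SE 0.0272, adjusted p = 1.93e-09). Its difference of responses was 3.34 (SE 0.0512, adjusted p = 5.62e-14).

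Genes of the flavonoid branch moved in different directions. The chalcone synthase gene listed as CHS* fell in QJ, at 3.57 ± 0.287 FPKM in stressed QJ against 20.5 ± 0.917 FPKM in control QJ leaves (SD, n = 3 each; -2.23, SE 0.0822, adjusted p = 5.17e-08). Its LJ means were 30.5 ± 1.47 FPKM under stress and 37.8 ± 0.790 FPKM in controls. Another chalcone synthase gene, OsCHS (Os05g0574600), rose by 2.05 in QJ (SE 0.115, adjusted p = 6.29e-07) and by 3.74 in LJ (SE 0.0899, adjusted p = 3.93e-09). CYP75B4, a flavonoid hydroxylase of tricin synthesis, fell in LJ to 5.34 ± 2.15 FPKM in stressed leaves, against 92.9 ± 6.39 FPKM in control leaves (SD, n = 3 each; -3.94, SE 0.202, adjusted p = 2.99e-07). It fell in QJ as well, where the means were 3.66 FPKM in stressed and 7.81 FPKM in control leaves (-0.98, SE 0.255, adjusted p = 0.00589). Of 2 genes named FLS, for flavonol synthase, Os10g0559500 (FLS) was higher under stress in QJ with 7.25 to 10.18 FPKM in stressed leaves against 0 to 1.67 FPKM in controls (2.47, SE 0.331, adjusted p = 0.000138). It met the filter of 1 FPKM in QJ only through its stressed libraries, so its QJ value is a description. In LJ it rose with 9.51 to 10.17 FPKM against 2.69 to 2.88 FPKM (1.51, SE 0.0780, adjusted p = 3.07e-07). The other, Os02g0767300 (FLS), fell in LJ (-1.81, SE 0.143, adjusted p = 4.27e-06) and was too low to be tested in QJ.

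For the remaining steps the most abundant gene is missing from both stress tables, and its variety differences can be given. The arogenate dehydratase ADT, which supplies phenylalanine, averaged 205 ± 5.33 FPKM in stressed QJ and 71.4 ± 1.86 FPKM in stressed LJ leaves, and was higher in QJ by 1.51 (SE 0.0325, adjusted p = 1.81e-09). HCT3, a hydroxycinnamoyl transferase, was higher in QJ by 1.63 (SE 0.0627, adjusted p = 5.03e-08) between stressed and by 1.69 (SE 0.0416, adjusted p = 5.85e-09) between control leaves. OsCCR21, ROMT-17 (an O-methyltransferase), OsF3H-2 (a flavanone hydroxylase by name) and, between control leaves, the CAD-like gene CADL were lower in QJ, as most PAL and C4H genes were. Between control leaves 5 of 28 tested pathway genes were higher and 23 lower in QJ (median -1.40 against -1.02 over all genes), and between stressed leaves 7 of 21 were higher and 13 lower (-0.71 against -0.82). Over all tested genes 31.1% were higher and 68.6% lower between control leaves, and 34.0% were higher and 65.4% lower between stressed leaves. Of 26 pathway genes tested for a difference of responses, 18 had the higher and 4 the lower value in QJ (median 0.54 against 0.21), where 41.4% of all genes had a higher and 25.0% a lower value. CYP84A5, among the 18, had 0.30, no more than the shift of 0.30 under median centring. CM and OsCCR (0.33 each), EPSPS (0.41) and OsCAD8B (0.42), also among them, were little above it. How the count of 18 changes with centring was not tested.

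**Figure D4:**
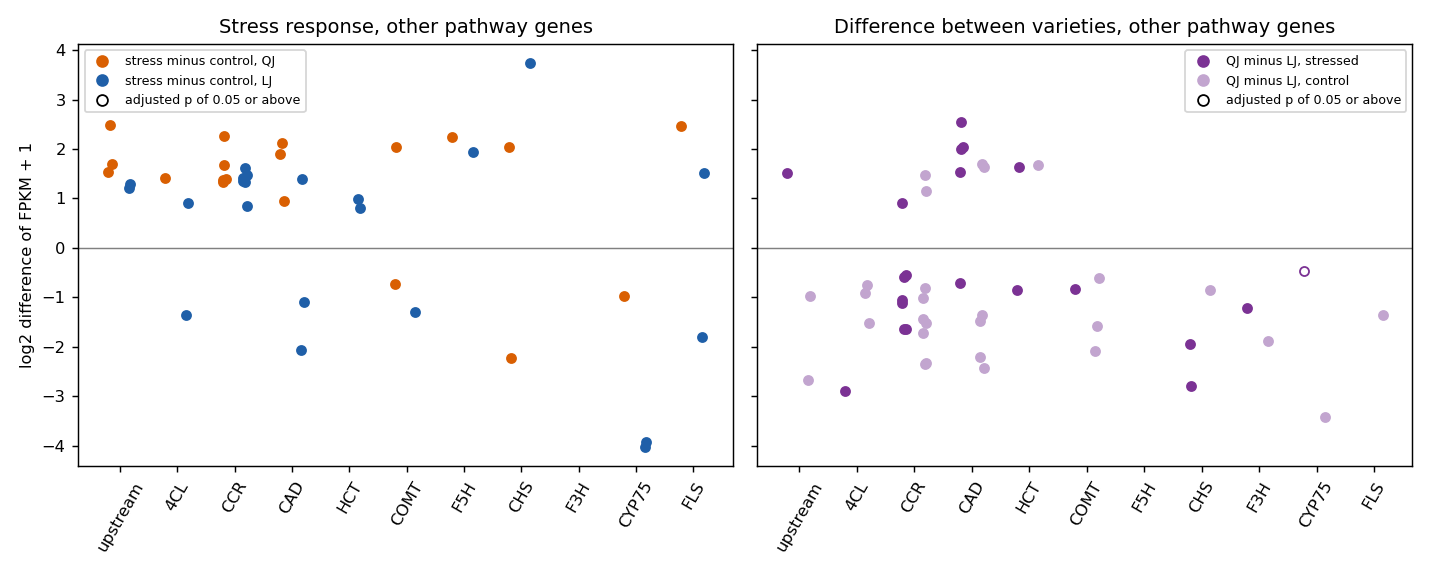
Log2 differences of FPKM + 1 for the tested genes of the pathway list by enzyme step, for stress minus control in each variety (left) and QJ minus LJ (right), with 1 circle per gene and open circles where the adjusted p was 0.05 or above. The CCR genes tested lie above 0 in both stress comparisons. Between varieties the CCR, CAD and HCT genes and those of the steps before PAL lie on both sides of 0, and the genes of the other steps lie below it.

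Genes with the most similar profiles were sought for each PAL and C4H gene among named genes, by the root-mean-square (RMS) difference of log2(FPKM + 1) after centring each gene on its own mean. Over 12 libraries the closest to OsPAL1 among 1429 candidates were OSJNBb0060J21.19 (RMS 0.0577), OsalphaCA6 (0.0733) and OsNRT1.3A (0.171). C4H2 was closest to OSJNBb0035K09.20 (0.0978), OSJNBb0035K09.21 (0.0996) and OJ1134F05.4 (0.148). OsPAL04 was closest to RbcS1 (0.134), OsGLR1.1 (0.139) and OsORAP1 (0.158), and OsPAL03 to UspA (0.190), OJ1116_C07.8 (0.198) and OsACS5 (0.255). RbcS1 averaged only 1.13 FPKM in stressed QJ and 0.183 FPKM in control QJ leaves, where the added 1 FPKM shrinks its change, so its likeness to OsPAL04 depends on that addition.

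C4H1 was nearest to OsRFPV-1 (RMS 0.185), OsOPR6 (0.273) and OsLTP2.4 (0.456), and OsC4H to OJ1112_E08.115 (0.292), JMT-2 (0.323) and BC1L6 (0.379). Over the 9 libraries each had, OsPAL02 was nearest to TagI (0.0279), ACS1 (0.112) and OsRab11G2 (0.126) among 1632 candidates, and OsPAL07 to OsbHLH108 (0.0783), OsRePRP1.2 (0.0865) and OsS40-14 (0.103) among 1536. The numbered PAL genes and the C4H genes were left out of the candidates. The unnumbered OsPAL genes stayed in wherever they had the values needed, and neither was among the closest genes given here. These RMS values describe the libraries, which the genes share, without a test.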

How the data were processed

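Per the file headers, the deposited values are FPKM by gene and library. The authors added their own log2 fold change and p-value for each gene. The 12 leaf libraries were run on a NovaSeq X Plus, per the labels' protocols. Not given in the sources used here are the aligner, the genome build, the counting and the authors' test. Of 31572 values present in more than 1 table, 0 differed.

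Columns were matched to sample titles. Tables were read with Python 3.11.15, pandas 2.3.3 and numpy 2.4.6, and figures drawn with matplotlib 3.10.9. Each table was fitted in limma 3.58.1 (R 4.3.3), using log2(FPKM + 1), a trended prior and the genes that reached 1 FPKM in 3 or more of the libraries compared. The difference of responses, and values of genes that a table does not list, came from all 12 libraries; the second use was chosen after seeing the files. The procedure was tested on simulated data. The genes and lists were chosen with earlier results of these data known. Named pathway genes were the most abundant of each step (OsCHS, ROMT9, OsCAD5, OsCAD7, OsCAD8D and the FLS gene Os02g0767300 were added after their values were seen), and similar genes the 3 closest named ones with a mean of at least 5 FPKM. A gene called Mtr1 (Os02g0491300) was left out of the pathway list because the name is also used for another gene.

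Alternatives were pseudocounts of 0.1 and 0.5, a filter of at least 5 FPKM or none, median centring, the authors' scaling, limma without trend, a replicate block and leaving out each library.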

Additional observations from a re-analysis of the deposited data

Results flagged for a closer look

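The stress response differed between QJ and LJ, by the test of the difference itself in limma over 12 libraries, for each of the 6 PAL and C4H genes with values throughout and for 1 unnumbered OsPAL gene. The log2 difference, QJ minus LJ, was 1.70 for C4H1, 1.56 for OsC4H, 1.51 for OsPAL03, 0.81 for OsPAL (Os02g0626400), 0.42 for OsPAL1, 0.18 for C4H2 and -0.36 for OsPAL04. The adjusted p ran from 1.57e-10 for C4H1 to 0.00473 for C4H2. Among all 5170 genes tested 66.4% passed.

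For OsC4H the value rests on control QJ libraries at 0.33 to 0.66 FPKM, and it was 2.51 with a pseudocount of 0.1. The values of C4H2 and OsPAL1 depend on the scaling.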

How the results depend on the processing

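For the 41 differences of PAL and C4H genes, 636 alternatives were run, of which 594 kept the direction and the side of the threshold (or, without a test, stayed within the replicate spread). Of the others 35 were shifts under the authors' scaling. That scaling was applied to each of the 41 differences, so most of them moved beyond the replicate spread under it, these 35 without a change of direction. Median centring turned the control difference of C4H2 to 0.43 and its difference of responses to -0.12, and the authors' scaling turned its stressed difference to -0.24 and its difference of responses to -0.11. Centring also took OsPAL1 below the threshold in the difference of responses (0.12) and OsPAL03 past it in QJ (-0.35). It moved the median of all genes by 0.60 between controls, 0.15 between stressed groups, -0.32 in QJ, 0.06 in LJ and -0.30 in the difference of responses. In the 12-library fit the share of calls that were higher was 42.3% with centring and 56.0% without in QJ, and 46.9% with and 35.0% without between controls. The cause was not tested. OsC4H in QJ was 2.28 with a pseudocount of 0.1.

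Leaving out single libraries kept 287 of 288 values on their side. The exception was C4H2 between controls, at -0.09 (adjusted p = 0.0361) without control QJ replicate 2. OsC4H in LJ ran from -0.35 without control LJ replicate 2 to -0.07 without replicate 3, in neither case passing. A filter of at least 5 FPKM tests fewer genes and left 3689 calls between controls (6088 without it) and 3979 in LJ (5970). Replicate numbers were not treated as pairs. Between libraries of the same number, deviations of log2(FPKM + 1) from the group means correlated at -0.0652 to 0.0438. With a replicate block 3628 genes passed in QJ, 5973 in LJ, 6092 between controls, 5638 between stressed groups and 3437 in the difference of responses, and 41 of 41 gene results kept their call. Unknown depth limits OsC4H most, at under 1 FPKM in control QJ leaves.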
